A study of Mus musculus with 9 samples.

Results

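The genes described here encode glucose transporters and the enzymes of glycolysis, the pentose phosphate pathway, the pyruvate dehydrogenase complex and the citric acid cycle. They were chosen as a list of 47 genes and found on the arrays through the RefSeq accession of each probe. The list made up 47 of 20018 named genes and 64 of 55681 probes. All 47 were among the 14506 genes tested, and all 64 of their probes were tested. The list held 2 glucose transporter genes, 18 genes of glycolysis with the 2,3-bisphosphoglycerate side step and lactate dehydrogenase, 7 of the pentose phosphate pathway, 6 of pyruvate dehydrogenase and its kinases, and 14 of the citric acid cycle with its cytosolic counterparts. Of the 47 genes, 42 were well above background on all 9 arrays. The exceptions, each of which failed on at least 1 array, were Hk2, Pklr, Ldhb, Dlat and Suclg2.

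The samples were erythroblasts, the precursors from which red cells form, sorted from mouse bone marrow as what the labels call Subset II. All mice were wild-type C57BL/6J and labelled female. Each of 3 groups had 3 arrays, from mice on normal diet and from mice that received a low iron diet after weaning for 3 weeks or for 7 weeks. The design text speaks of biological replicates. Whether a sample held cells of 1 animal or of a pool is not given in the sources used here, nor is the age of the normal diet mice. Total RNA was amplified and labelled with Cy3 for single-colour hybridization. In bulk RNA of this kind, fewer cells of a type and less RNA per cell cannot be told apart.

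Glycolysis splits glucose into pyruvate in the cytosol and yields ATP without oxygen, and its side step through bisphosphoglycerate mutase makes 2,3-bisphosphoglycerate, which lowers the oxygen affinity of haemoglobin. The pentose phosphate pathway branches off at glucose 6-phosphate, first making NADPH, which red cells use against oxidants, and then ribose phosphate for nucleotides. Pyruvate dehydrogenase turns pyruvate into acetyl-CoA in mitochondria, and the citric acid cycle oxidizes it. The cycle also makes succinyl-CoA, which the erythroid enzyme Alas2 joins with glycine in the first step of heme synthesis. Erythroblasts carry out both branches, while mature red cells have lost their mitochondria and live on glycolysis.

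A gene's level is given as the log2 of its signal minus the log2 of the array's 75th percentile, so that 0 is the 75th percentile of that array. Levels of different genes come from different probes and are not set against each other. A change is the difference between the mean levels of 3 arrays and 3 arrays on the log2 scale, given ± its standard error, and its p-value comes from limma with Benjamini-Hochberg adjustment over all 14506 genes. A gene is called higher or lower when that adjusted p is below 0.05.

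Several arrays stood apart before any gene of these pathways was considered. The share of spots well above background was 65.5% to 66.3% on normal diet, 56.8% to 70.8% after 3 weeks and 45.2% to 53.6% after 7 weeks. Scaling divided the arrays by signals of 1499 to 1616 (normal diet), 1677 to 1837 (3 weeks) and 792 to 1087 (7 weeks). Spike-in controls had a mean level of 4.42 to 5.36 on the 7 week arrays. Their mean level was 0.57 to 1.74 on normal diet and 1.12 to 1.50 after 3 weeks. The arrays were not scaled to these controls, so their bearing on the 7 week changes was not tested. No slide or scan held arrays of more than 1 group, and slide, scan and diet therefore cannot be told apart. On 2 of the 3 normal diet arrays the sex-linked genes went against the label. The RNA Xist, which silences an X chromosome in females, was at -5.59 and -5.24 on normal diet replicates 1 and 2, against -0.73 on replicate 3, and the Y-linked Eif2s3y was at 5.12, 4.82 and -3.77 on the same arrays. Of the 47 genes, 5 lie on the X chromosome, and among them Pgk1 differed most between those arrays and replicate 3 (4.46 and 4.49 against 3.78). On all low iron arrays Xist was well above background, at -1.16 to 1.46. Eif2s3y was at -6.61 to -3.98 there and was not. In the comparisons against normal diet, what these sex-linked genes show therefore cannot be fully told apart from diet. Among the 7 week arrays replicate 1 stood apart. It received a weight of 0.17 from limma's array weights, against 0.48 and 0.95 for replicates 2 and 3, and it was the lowest of its group for 30 of the 47 genes (63.8%, against 37.3% of all genes tested). The median standard deviation of the 47 genes was 0.34 on normal diet, 0.30 after 3 weeks and 0.88 after 7 weeks, where that of all genes was 0.29, 0.32 and 0.58. All 12 erythroblast markers examined were well above background on at least 1 array of every group, and the log2 of their summed level was 11.09 to 11.17 on normal diet, 10.91 to 11.01 after 3 weeks and 11.38 to 12.03 after 7 weeks.

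After 7 weeks of low iron diet, messages for both glucose transporters and for 6 of 18 genes of glycolysis were higher, and messages for 4 of 6 genes of pyruvate dehydrogenase and its kinases and 3 of 14 of the citric acid cycle were lower, than on normal diet. Of the 47 genes 18 were called (38.3%), where 29.5% of all genes tested were. Of these, 10 were higher (21.3%, against 10.7% of all genes) and 8 were lower (17.0%, against 18.7% of all genes). Lower calls were thus no more frequent in the list than among all genes. All 8 higher genes outside the pentose phosphate pathway belonged to glucose import or glycolysis. By the brightest probes and with this scaling, none of the 20 genes of import and glycolysis was lower. The second probe of Hk1 was lower (-1.38, adjusted p = 0.0214 over probes). All 7 lower genes outside the pentose phosphate pathway belonged to pyruvate dehydrogenase or the citric acid cycle. None of the 20 genes there was higher. Among the 7, Dlat and Suclg2 entered the test through the groups where they were high, and their 7 week signal was near background. The median change was 0.43 over the 20 genes of import and glycolysis and -1.23 over the 20 of pyruvate dehydrogenase and the citric acid cycle, where that of all genes was -0.26. Levels of the 7 week and normal diet arrays did not overlap for 24 of the 47 genes (51.1%), as for 47.4% of all genes.

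Most of the higher calls depended on how the arrays were scaled. With no scaling between arrays the median change of all genes at 7 weeks was -1.07, and 48.9% of all genes were called. Of the 47 genes 20 were then called lower, among them Pfkm, Tpi1, Pklr and Ldhb of glycolysis. Called higher were 2, Slc2a1 (5.56) and Pfkp (3.18). Of the other 8 higher genes Taldo1 changed sign (-0.05), and the remaining 7 kept theirs without a call. With quantile normalization 14 of the 47 were called, where 27.3% of all genes were, and Bpgm, Taldo1, Pdha1 and Pdk3 lost their calls. Without normal diet replicates 1 and 2 none of the 47 was called against normal diet at 7 weeks, in a fit that called 1 of all 14506 genes; all 18 kept their direction, and 12 of the 18 had an unadjusted p below 0.05, among 3047 of all genes. Leaving out 1 array at a time, 7 were called without normal diet replicate 1, where 12% of all genes were. Without normal diet replicate 3, 10 were called, where 14.8% of all genes were. Without any other array 13 to 22 were called, where 21.8% to 35.9% of all genes were. Pfkm and Pklr were called lower without 7 week replicate 3, and Ldhb without 7 week replicate 2.

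**Figure D1:**
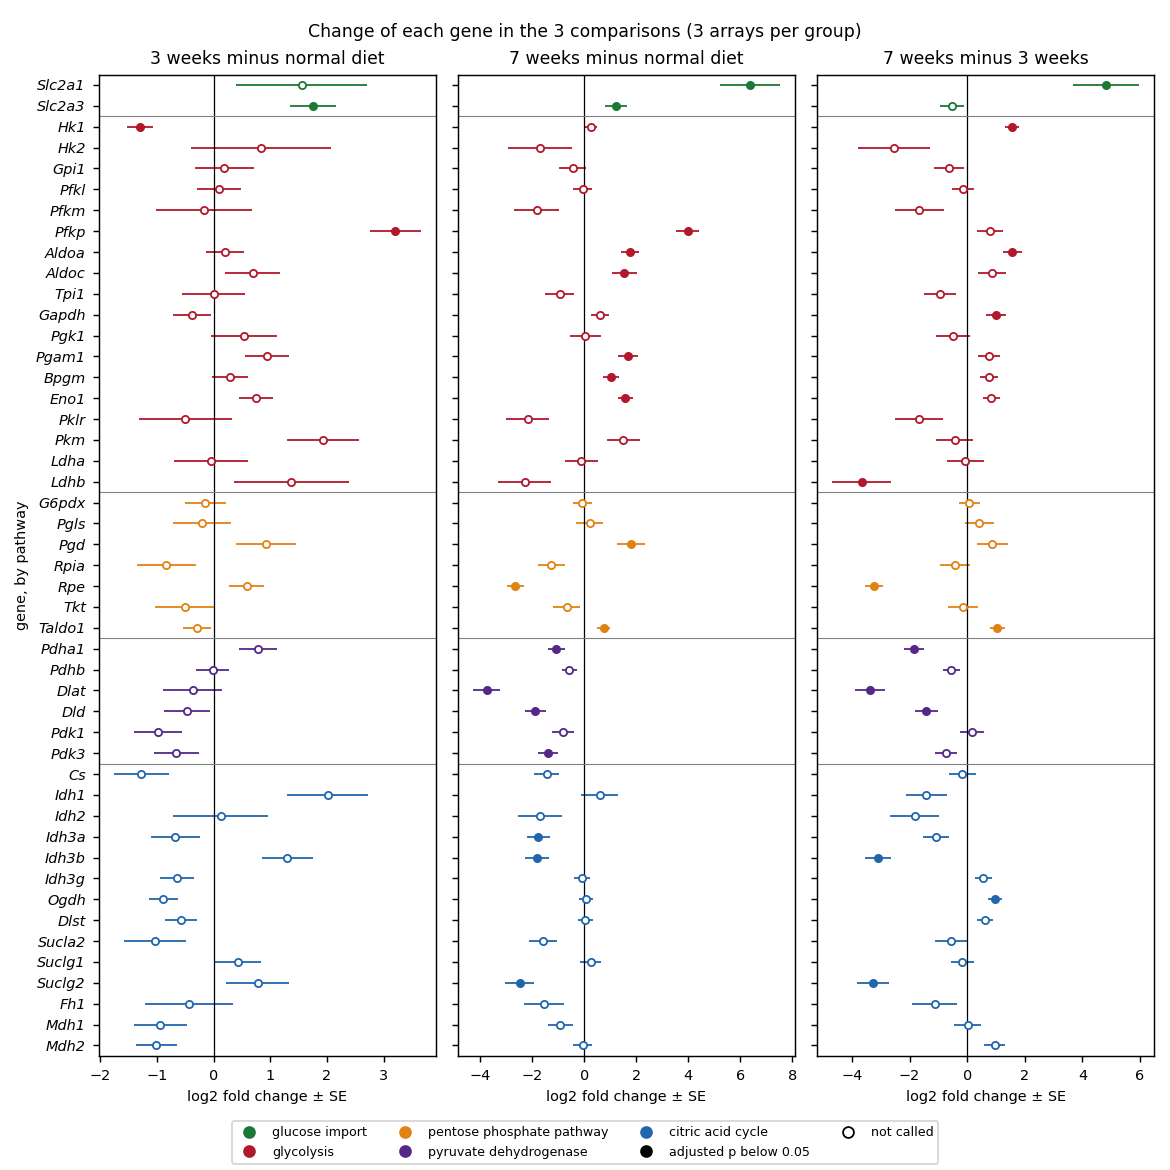
Log2 fold change ± SE of each of the 47 genes, grouped by pathway, after 3 weeks against normal diet, after 7 weeks against normal diet and after 7 weeks against 3 weeks (3 arrays per group). Filled points have an adjusted p below 0.05. In the middle panel the filled points of import and glycolysis lie to the right of 0 and those of pyruvate dehydrogenase and the citric acid cycle to the left; with no scaling between arrays all points of that panel lie 0.80 further left, and Taldo1 lies at -0.05 instead of 0.75.

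After 3 weeks 3 of the 47 genes were called against normal diet (6.38%), where 11.4% of all genes were. The difference of these shares was not tested. Higher were Slc2a3 and Pfkp (4.26% of the list, against 3.52% of all genes), and lower was Hk1 (2.13%, against 7.88% of all genes). The groups did not overlap for 24 of the 47 genes (51.1%, against 49.5% of all genes). The median change of the 47 was -0.01 and that of all genes was -0.17. Without normal diet replicates 1 and 2 none of the 3 was called, and none of all 14506 genes was; 2 of the 3 had an unadjusted p below 0.05, among 1588 of all genes. Without 7 week replicate 1, whose spread enters the shared error, 10 of the 47 were called at 3 weeks, where 24.1% of all genes were; the 7 added were Pkm, Idh1 and Idh3b, higher, and Cs, Ogdh, Sucla2 and Mdh2, lower.

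Between the low iron times, 13 of the 47 genes were called at 7 weeks against 3 weeks (27.7%), where 37.2% of all genes were. Higher were 6 (12.8%, against 17.6% of all genes) and lower 7 (14.9%, against 19.6% of all genes). Levels of the 2 groups did not overlap for 20 of the 47 genes (42.6%, against 48.4% of all genes). With quantile normalization 2 were higher and 8 lower, where 37.8% of all genes were called. With no scaling between arrays 1 was higher and 18 lower. In that fit the median change of all genes was -1.09, and 52.6% of all genes were called. In all, 22 of the 47 genes were called in at least 1 comparison and 25 in none. The comparisons share arrays, so their counts are not independent.

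**Figure D2:**
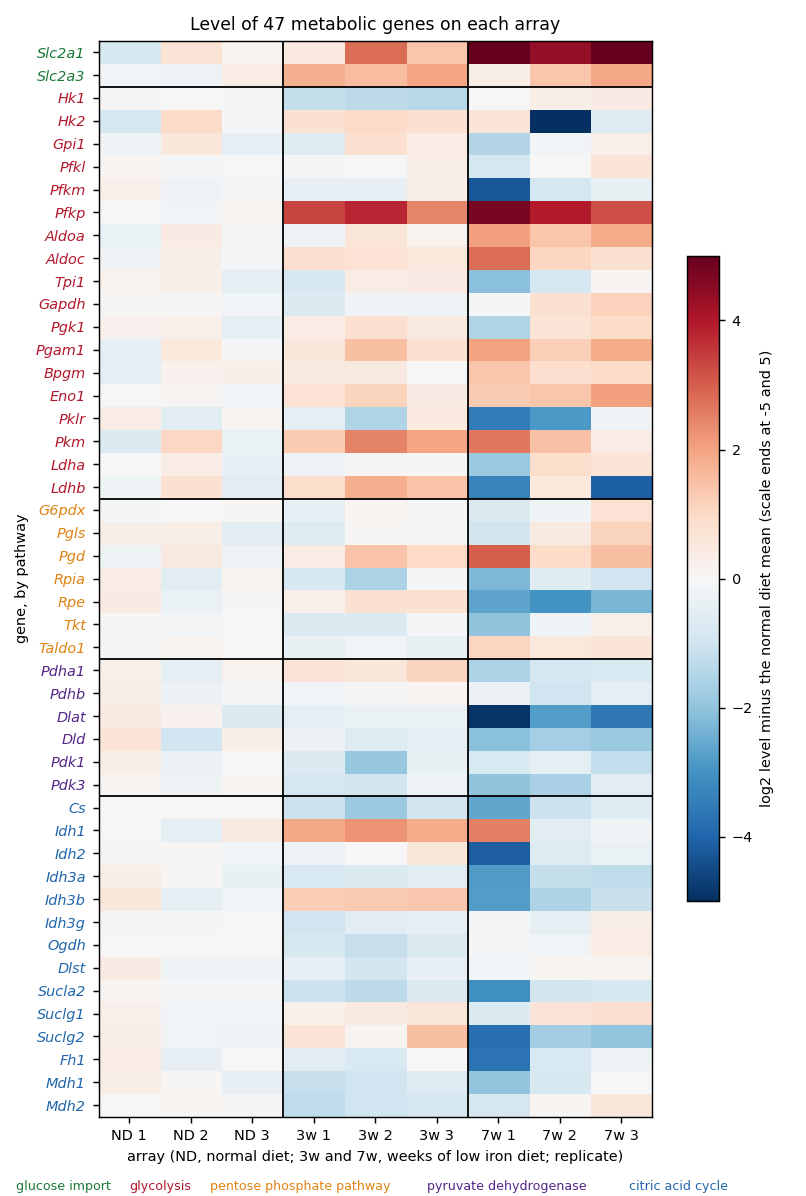
Level of each of the 47 genes on each of the 9 arrays, as the log2 difference from the mean of the 3 normal diet arrays, with rows grouped and coloured by pathway. Slc2a1 and Pfkp are dark red on all 3 arrays of 7 weeks, Dlat and Rpe are blue on them, and replicate 1 of that group is the darkest blue for genes such as Pfkm, Idh2 and Fh1.

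Promoter sequences were examined, as set in the design, for the core of the hypoxia response element, ACGTG or GCGTG. Some of the 47 genes are known targets of hypoxia-inducible factors. Of those described as such below, Slc2a1 was called higher at 7 weeks (6.37), while Ldha (-0.11) and Pdk1 (-0.81) were not called. A part of these factors in the changes was not tested. A promoter here is the stretch from 250 bases before to 50 bases after a transcription start in RefSeq on build GRCm38.p6, and a gene counts when any of its promoters holds a core on either strand. Promoters were given for 45 of the 47 genes, all but Slc2a3 and Idh3a. The core was found for 33 of the 45 (73.3%), against 60.9% of the genes tested on the arrays and 46.7% of all genes with a promoter. Of the genes called at 7 weeks, 8 of the 9 higher ones with a promoter held the core, all but Bpgm, 2 of the 7 lower ones did, Pdha1 and Pdk3, and so did 23 of the 29 not called (79.3%). Of all genes tested, 55.5% of those called higher at 7 weeks held it, 66.1% of those called lower and 60.4% of those not called. The E-box CACGTG, which contains the first core, was found for 3 of the 45 (6.67%, against 8.09% of all genes). A match describes these letters in this window and is not a measured binding site. The 5 promoters shown belong to 3 genes that were higher and 2 that were lower at 7 weeks. They do not represent all called genes: Bpgm, higher, held no match, and Pdha1 and Pdk3, lower, held 4 each. Capitals mark the core on either strand (CACGT and CACGC are its reverse complements). The sequences hold 2 matches for Slc2a1, 4 for Pfkp and 3 for Pgam1, and none in the promoters of Rpe and Dlat.
Slc2a1, chr4:119108495-119108794, plus strand: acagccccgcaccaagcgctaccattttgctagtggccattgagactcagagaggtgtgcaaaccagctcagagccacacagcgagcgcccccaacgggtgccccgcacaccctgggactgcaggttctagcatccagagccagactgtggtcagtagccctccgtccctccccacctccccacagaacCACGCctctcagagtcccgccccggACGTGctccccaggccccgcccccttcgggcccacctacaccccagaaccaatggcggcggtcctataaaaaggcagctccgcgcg
Pfkp, chr13:6648722-6649021, minus strand: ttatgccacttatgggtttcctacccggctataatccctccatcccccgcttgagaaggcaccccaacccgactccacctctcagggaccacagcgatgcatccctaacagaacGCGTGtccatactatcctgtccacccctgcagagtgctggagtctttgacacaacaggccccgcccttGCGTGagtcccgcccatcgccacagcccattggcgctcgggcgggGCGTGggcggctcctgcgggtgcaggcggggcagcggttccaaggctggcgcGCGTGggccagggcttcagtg
Pgam1, chr19:41911621-41911920, plus strand: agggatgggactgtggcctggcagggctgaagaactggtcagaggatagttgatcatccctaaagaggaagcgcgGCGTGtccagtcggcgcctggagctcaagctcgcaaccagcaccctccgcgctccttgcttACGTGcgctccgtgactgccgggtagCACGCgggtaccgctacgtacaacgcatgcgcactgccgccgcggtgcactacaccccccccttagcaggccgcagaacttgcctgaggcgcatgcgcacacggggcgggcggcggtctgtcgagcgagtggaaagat
Rpe, chr1:66700581-66700880, plus strand: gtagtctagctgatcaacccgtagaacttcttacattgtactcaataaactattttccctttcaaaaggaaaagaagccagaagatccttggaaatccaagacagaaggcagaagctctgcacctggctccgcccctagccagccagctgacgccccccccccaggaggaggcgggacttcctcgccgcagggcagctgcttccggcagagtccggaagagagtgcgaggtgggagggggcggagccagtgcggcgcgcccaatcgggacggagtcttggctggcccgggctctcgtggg
Dlat, chr9:50659731-50660030, minus strand: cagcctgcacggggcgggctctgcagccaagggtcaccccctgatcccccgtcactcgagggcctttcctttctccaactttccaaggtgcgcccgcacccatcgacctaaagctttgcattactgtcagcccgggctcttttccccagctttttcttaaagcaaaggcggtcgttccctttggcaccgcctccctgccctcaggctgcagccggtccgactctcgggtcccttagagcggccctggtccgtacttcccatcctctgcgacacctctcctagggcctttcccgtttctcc

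The largest rise among the 47 genes at 7 weeks was that of Slc2a1, which encodes the glucose transporter GLUT1, a target of hypoxia-inducible factors. Its level was -3.94, -2.42 and -3.0 on the normal diet arrays, -2.62, -0.33 and -1.74 after 3 weeks and 6.23, 1.29 and 2.23 after 7 weeks. All 3 arrays of 7 weeks lay above every other array, and replicate 1 lay far above the other two. The change was 6.37 ± 1.15 (82.6-fold, adjusted p = 0.00625) at 7 weeks against normal diet, 4.81 ± 1.15 (adjusted p = 0.0114) at 7 weeks against 3 weeks and 1.55 ± 1.15 (adjusted p = 0.4) at 3 weeks against normal diet. Without 7 week replicate 1 the change at 7 weeks was 4.88 (adjusted p = 0.00287) against normal diet and 3.32 (adjusted p = 0.00584) against 3 weeks. The call at 7 weeks held in each of the 9 fits that left out 1 array.

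Slc2a3 encodes GLUT3, a high-affinity glucose transporter. Its level was 0.14, 0.01 and 0.63 on normal diet, 2.02, 1.79 and 2.22 after 3 weeks and 0.60, 1.66 and 2.18 after 7 weeks. The 3 week arrays lay above all normal diet arrays, while 7 week replicate 1 lay within their range. It rose by 1.75 ± 0.41 at 3 weeks (3.36-fold, adjusted p = 0.0287) and by 1.22 ± 0.41 at 7 weeks (2.33-fold, adjusted p = 0.0495). The 7 week call held in 1 of the 9 fits with an array left out, the one without 7 week replicate 1 (1.66, adjusted p = 0.00595); in the others the adjusted p was at most 0.142. The 3 week call ended when any array of normal diet or of 3 weeks was left out (1.62 to 1.93, adjusted p from 0.0699 to 0.102). Before scaling, the 7 week change of Slc2a3 was 0.42 and was not called.

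In human red cells GLUT1 carries the glucose, whereas adult mouse red cells are known for GLUT4, the product of Slc2a4. Slc2a4, outside the 47, fell by 1.11 ± 0.32 at 7 weeks (adjusted p = 0.032), with levels of 4.56, 3.73 and 4.79 after 7 weeks and 5.63, 5.53 and 5.27 on normal diet.

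Glycolysis begins with hexokinase, and Hk1 is the main hexokinase of red cells. By its brighter probe Hk1 was at 7.34, 7.28 and 7.22 on normal diet, 6.07, 5.96 and 5.91 after 3 weeks and 7.32, 7.58 and 7.69 after 7 weeks. The 3 week arrays lay below all others. Hk1 fell by 1.30 ± 0.23 at 3 weeks (adjusted p = 0.0149) and was higher by 1.55 ± 0.23 at 7 weeks than at 3 weeks (adjusted p = 0.00151). The 3 week call ended without normal diet replicate 1 (-1.27, adjusted p = 0.0544), replicate 2 (-1.30, 0.063) or replicate 3 (-1.33, 0.0584) or 3 week replicate 2 (-1.29, 0.06). With quantile normalization neither change was called (-0.74 at 3 weeks, adjusted p = 0.0626, and 0.51 between 7 and 3 weeks, adjusted p = 0.09), and with no scaling the change between 7 and 3 weeks was 0.59 (adjusted p = 0.113).

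The second probe of Hk1 moved the other way. It was at 1.33, 0.60 and 1.31 on normal diet, 1.65, 2.02 and 1.45 after 3 weeks and -0.64, -0.61 and 0.35 after 7 weeks. Its change was 0.63 ± 0.36 at 3 weeks (not called), -1.38 ± 0.36 at 7 weeks against normal diet (adjusted p = 0.0214 over the 34486 probes tested) and -2.01 ± 0.36 at 7 weeks against 3 weeks (adjusted p = 0.0028). The direction of Hk1 between 7 and 3 weeks is therefore not settled by these arrays. The mean of both probes changed by -0.23 there and by -0.34 at 3 weeks against normal diet, both without a call.

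Hk2, a hexokinase induced in many tissues by low oxygen, was not called in any comparison (-1.71 ± 1.24 at 7 weeks). It lay at 0.05, -5.75 and -1.24 on the 7 week arrays, 2 of which were well above background, and between -1.50 and 0.34 on normal diet. Gpi1, the isomerase of the next step, was not called by any of its 3 probes.

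Phosphofructokinase, the committed step, has 3 genes, and they differed. By the probe brighter over all 9 arrays Pfkp, the platelet form, was at -3.87, -4.03 and -3.74 on normal diet. It was at -0.51, -0.09 and -1.43 after 3 weeks and 0.86, 0.09 and -0.64 after 7 weeks. On normal diet that probe was the dimmer (mean -3.88, against -1.91 for the second probe). Its low iron levels thus led to its choice, so the rise is not independent of that choice. Every low iron array lay above every normal diet array. Pfkp rose by 3.20 ± 0.45 at 3 weeks (9.21-fold, adjusted p = 0.00926) and by 3.98 ± 0.45 at 7 weeks (15.8-fold, adjusted p = 0.00171), and both calls held in all 9 fits with 1 array left out. Its second probe did not show this. It changed by -0.91 ± 0.41 at 3 weeks and -0.19 ± 0.41 at 7 weeks, without a call. It was at -1.03, -1.93 and -2.77 on normal diet, -2.86, -2.91 and -2.70 after 3 weeks and -1.86, -1.99 and -2.45 after 7 weeks, with both low iron groups near or within the normal diet range. The mean of both probes gave 1.90 at 7 weeks (adjusted p = 0.00646) and 1.15 at 3 weeks (adjusted p = 0.0723).

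Pfkl, the liver form, differed little between groups (0.10 ± 0.38 at 3 weeks and -0.07 ± 0.38 at 7 weeks, not called). Pfkm, the muscle form, was at -0.41 on 7 week replicate 1 and at 2.96 and 3.46 on replicates 2 and 3, against 4.08, 3.68 and 3.76 on normal diet, and its change of -1.83 ± 0.85 was not called.

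Aldolase and the later enzymes of glycolysis gave most of the other rises. Aldoa encodes aldolase A, the form of muscle and red cells. Its level was 3.64, 4.39 and 3.87 on normal diet, 3.75, 4.58 and 4.16 after 3 weeks and 6.02, 5.34 and 5.83 after 7 weeks, so that only the 7 week arrays stood above the rest. Aldoa rose by 1.76 ± 0.33 at 7 weeks against normal diet (3.39-fold, adjusted p = 0.00703) and by 1.57 ± 0.33 against 3 weeks (adjusted p = 0.00676), and both calls held in all 9 fits with 1 array left out. Before scaling the changes were 0.96 and 0.60 and neither was called.

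Aldoc, an aldolase best known from brain, was at 0.32, 0.78 and 0.39 on normal diet, 1.29, 1.23 and 1.03 after 3 weeks and 3.30, 1.56 and 1.26 after 7 weeks. All low iron arrays lay above the normal diet arrays. It rose by 1.55 ± 0.49 at 7 weeks (adjusted p = 0.0414), by 0.92 without 7 week replicate 1 (adjusted p = 0.026), and the call ended when any array of normal diet or of 3 weeks was left out (1.46 to 1.69, adjusted p from 0.061 to 0.125). At 3 weeks its change of 0.69 ± 0.49 was not called.

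Pgam1, phosphoglycerate mutase, stood at 2.38, 3.38 and 2.73 on normal diet, 3.41, 4.32 and 3.60 after 3 weeks and 4.86, 4.03 and 4.69 after 7 weeks. The 3 week and 7 week arrays each lay above all normal diet arrays. Pgam1 rose by 1.69 ± 0.38 at 7 weeks (3.24-fold, adjusted p = 0.0128), and the call ended without normal diet replicate 1 (1.47, adjusted p = 0.0579). Eno1, the enolase of most tissues, stood at 4.29, 4.40 and 4.14 on normal diet, 4.99, 5.39 and 4.70 after 3 weeks and 5.59, 5.67 and 6.32 after 7 weeks. The 3 groups did not overlap, with normal diet lowest and 7 weeks highest. Eno1 rose by 1.59 ± 0.30 at 7 weeks (3-fold, adjusted p = 0.0072), which held in all 9 fits with 1 array left out, and its change of 0.75 ± 0.30 at 3 weeks was not called. Before scaling the 7 week changes of Pgam1 and Eno1 were 0.89 and 0.78 and were not called.

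Bpgm, which makes 2,3-bisphosphoglycerate, was at 6.77, 7.49 and 7.56 on normal diet, 7.74, 7.72 and 7.25 after 3 weeks and 8.65, 8.12 and 8.17 after 7 weeks. The 7 week arrays lay above all others. Bpgm rose by 1.04 ± 0.31 at 7 weeks (2.06-fold, adjusted p = 0.0363). Without normal diet replicate 1, 2 or 3 (0.79, 1.15 and 1.18) it was not called, nor without 3 week replicate 1 or 2 (1.04 each) or 7 week replicate 1 (0.87), at adjusted p from 0.052 to 0.136. Its signal was on average 36.3% of the saturation value, and before scaling its change was 0.24 and was not called. With quantile normalization its change was 0.38 and was not called either. Among the 394 genes tested at 20% of saturation or more, Bpgm included, 121 were called higher at 7 weeks and 14 lower, and their median change was 0.54 with the scaling and -0.27 without it.

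Gapdh, the glyceraldehyde phosphate dehydrogenase often used as a control gene, has 7 probes and no single direction. By the brightest it was at 6.98, 6.97 and 6.77 on normal diet, 6.23, 6.73 and 6.64 after 3 weeks and 6.85, 7.66 and 8.07 after 7 weeks. It was higher by 0.99 ± 0.34 at 7 weeks than at 3 weeks (adjusted p = 0.0469), and the changes of the 7 probes in that comparison ran between -1.25 and 1.17. With quantile normalization its change there was -0.18, and with the mean of its probes -0.06. The call held in 1 of 9 fits with an array left out, that without 7 week replicate 1 (1.33, adjusted p = 0.00511); in the other 8 it was 0.72 to 1.09, with adjusted p from 0.0691 to 0.143. Against normal diet its change was 0.62 ± 0.34 at 7 weeks and -0.38 ± 0.34 at 3 weeks, neither called.

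Tpi1 and Pgk1, the other enzymes of the middle of the pathway, were not called by the probes that stood for them (-0.95 ± 0.56 and 0.04 ± 0.58 at 7 weeks). The second probe of Tpi1 was lower at 7 weeks than at 3 weeks (-2.10 ± 0.52, adjusted p = 0.0123 over probes).

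**Figure D3:**
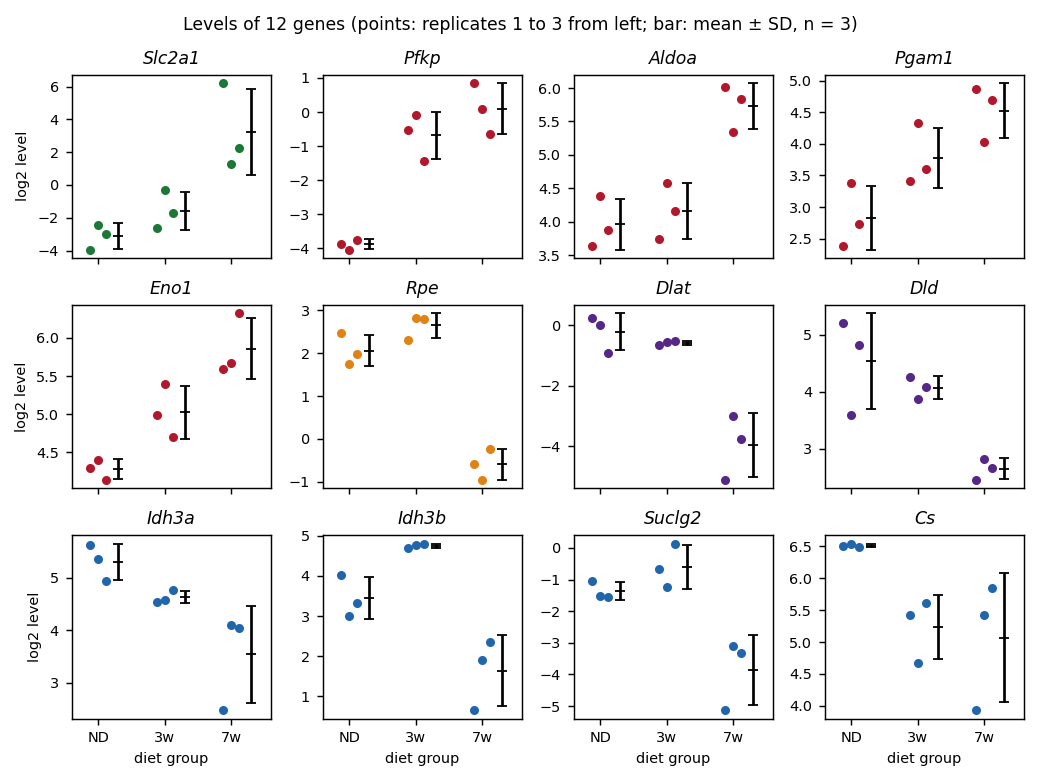
Log2 level of 12 genes on each array (points, replicates 1 to 3 from left within a group) with the mean ± SD of the group (n = 3), for normal diet (ND), 3 weeks (3w) and 7 weeks (7w) of low iron diet. Slc2a1, Pfkp, Aldoa, Pgam1 and Eno1 lie higher at 7 weeks than on normal diet, and Rpe, Dlat, Dld, Idh3a, Idh3b and Suclg2 lower; with no scaling between arrays the rises of Aldoa, Pgam1 and Eno1 were 0.96, 0.89 and 0.78 and not called.

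Neither pyruvate kinase gene, which act at the last step of glycolysis, was called. Pklr, the pyruvate kinase of red cells and liver, had a change of -2.17 ± 0.82 at 7 weeks (adjusted p = 0.0748); it was at -4.88, -4.25 and -1.56 after 7 weeks, with 1 of the 3 arrays well above background, and between -1.91 and -1.01 on normal diet. Pkm, the pyruvate kinase of muscle and of dividing cells, had changes of 1.93 ± 0.64 at 3 weeks (adjusted p = 0.0807) and 1.50 ± 0.64 at 7 weeks (adjusted p = 0.105). The 3 week arrays of Pkm (0.63, 1.81 and 1.30) lay above all normal diet arrays (-1.37, 0.34 and -1.03).

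Lactate dehydrogenase turns pyruvate into lactate. Ldha, its muscle-type subunit and a known target of hypoxia-inducible factors, was not called by its brightest probe (-0.11 ± 0.65 at 7 weeks). That probe was at 3.44, 6.19 and 5.98 after 7 weeks, against 5.34, 5.70 and 4.89 on normal diet, so 7 week replicate 1 lay below and replicates 2 and 3 above all normal diet arrays. Another of its 3 probes rose by 0.87 ± 0.24 at 3 weeks (adjusted p = 0.0481 over probes), and at 7 weeks against 3 weeks 2 of the 3 fell (-2.05 ± 0.65 and -1.11 ± 0.24). Ldhb, the heart-type subunit, was at -1.97, -0.98 and -2.26 on normal diet, -0.87, 0.08 and -0.31 after 3 weeks and -5.08, -1.21 and -5.81 after 7 weeks. It was lower by 3.67 at 7 weeks than at 3 weeks (-3.67 ± 1.02, adjusted p = 0.0209), with 1 of the 3 arrays of 7 weeks well above background. It entered the test through the groups where it was high, and its 7 week mean of -4.03 lay below -3.55, the mean over those arrays of the lowest signal well above background, so the size of its change is not settled. That call ended without 3 week replicate 2 (-3.44) or 3 (-3.64) or 7 week replicate 3 (-2.78), at adjusted p from 0.0579 to 0.0658.

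Over the 18 genes of glycolysis, 6 were called higher and none lower at 7 weeks, 12 passed in neither direction, and the median change was 0.15, where 10.7% of all genes were higher and 18.7% lower. At 3 weeks 1 was higher and 1 lower, with a median of 0.24, where 3.52% and 7.88% of all genes were. At 7 weeks against 3 weeks 3 were higher and 1 lower, with a median of -0.11, where 17.6% and 19.6% of all genes were.

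**Figure D4:**
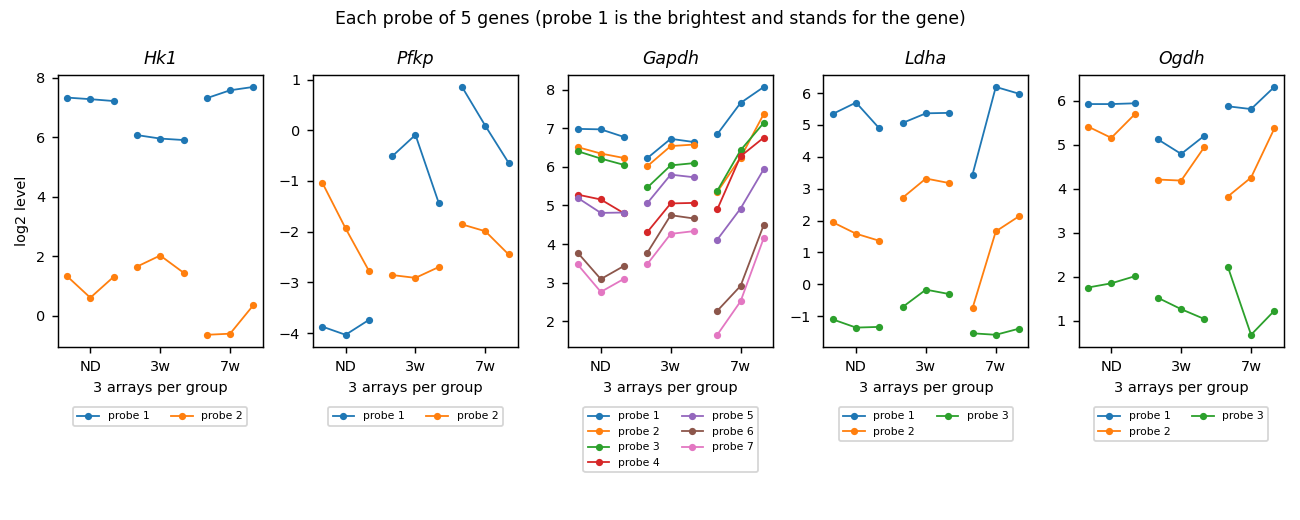
Log2 level of every probe of Hk1, Pfkp, Gapdh, Ldha and Ogdh on the 9 arrays, with lines joining the 3 arrays of a group (ND, normal diet; 3w and 7w, weeks of low iron diet). Probe 1 is the brightest by the mean over the 9 arrays and stood for the gene. For Hk1 the 3 week arrays lie lowest by probe 1 and highest by probe 2, and for Pfkp the rise after normal diet is seen by probe 1 and not by probe 2.

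Of the 9 genes with more than 1 probe, Hk1, Pfkp, Gapdh, Ldha and Ogdh had probes whose changes differed in sign in at least 1 comparison. Over all probes tested, 13.2% were called at 3 weeks, 30.3% at 7 weeks and 39.6% between 7 and 3 weeks. The positions of the probes on their transcripts were not used here.

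In the pentose phosphate pathway 2 of the 7 genes were called higher at 7 weeks, 1 lower and 4 in neither direction, with a median change of -0.07, where 10.7% of all genes were higher and 18.7% lower; at 3 weeks none was called. The lower gene was Rpe, ribulose phosphate epimerase of the non-oxidative branch. It was at 2.46, 1.74 and 1.98 on normal diet, 2.31, 2.81 and 2.80 after 3 weeks and -0.59, -0.95 and -0.23 after 7 weeks. The 7 week arrays lay below all others by more than the spread within any group. Rpe fell by 2.65 ± 0.31 at 7 weeks against normal diet (-2.65, 6.26-fold lower, adjusted p = 0.00198) and by 3.23 against 3 weeks (-3.23 ± 0.31, adjusted p = 0.000448), and both calls held in all 9 fits with 1 array left out.

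Pgd, the 6-phosphogluconate dehydrogenase that makes NADPH, was at 2.42, 3.06 and 2.39 on normal diet, 2.99, 4.06 and 3.61 after 3 weeks and 5.62, 3.53 and 4.12 after 7 weeks. The 7 week arrays lay above the normal diet arrays and, in part, within the 3 week range. Pgd rose by 1.80 ± 0.53 at 7 weeks (3.48-fold, adjusted p = 0.0329). Without 7 week replicate 1 the rise was 1.20 (adjusted p = 0.0411), and the call ended without normal diet replicate 1 (1.70, adjusted p = 0.107) or 3 (1.68, 0.102) or 3 week replicate 3 (1.80, 0.0511).

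Taldo1 encodes transaldolase of the non-oxidative branch, and its signal averaged 44.8% of the saturation value. It was at 7.77, 8.0 and 7.83 on normal diet, 7.49, 7.72 and 7.51 after 3 weeks and 8.93, 8.40 and 8.53 after 7 weeks. Its change was 0.75 ± 0.25 at 7 weeks against normal diet (adjusted p = 0.0499) and 1.05 ± 0.25 against 3 weeks (adjusted p = 0.0114). The direction turned with the scaling: against normal diet it was -0.05 with no scaling and -0.07 with quantile normalization, and against 3 weeks -0.18 with quantile normalization. The call against normal diet held in 1 of 9 fits with an array left out, that without 7 week replicate 2 (0.86); in the others it was 0.60 to 0.82 with adjusted p from 0.064 to 0.15.

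G6pdx, glucose-6-phosphate dehydrogenase at the entry of the pathway, was close to its normal diet level in both low iron groups (-0.07 ± 0.37 at 7 weeks and -0.14 ± 0.37 at 3 weeks, not called). Pgls, Rpia and Tkt were not called in any comparison, with changes between -1.26 and 0.21 at 7 weeks. The ribose isomerase Rpia had the lowest of these.

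**Figure D5:**
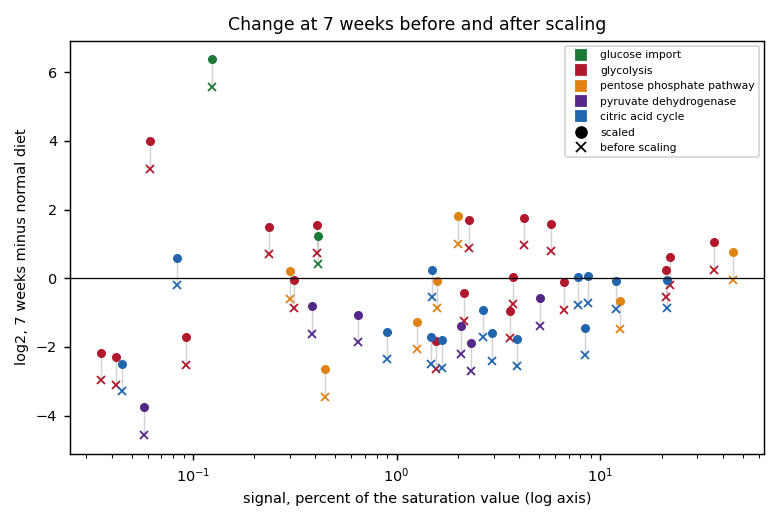
Change of each of the 47 genes at 7 weeks against normal diet (log2), with the arrays scaled to their 75th percentile (circles) and before scaling (crosses), against the mean signal of the gene in percent of the saturation value (log axis). Scaling lifts every gene by 0.80; Taldo1, at 44.8% of saturation, lies at 0.75 with and -0.05 without it, while Slc2a1 and Pfkp stay above 3 both ways.

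All 6 genes of pyruvate dehydrogenase and its kinases had lower levels on every 7 week array than on any normal diet array, as did 29.4% of all genes. Of these 6 genes, 4 were called lower, where 18.7% of all genes were, none was called higher, and the median change was -1.23. The complex joins a pyruvate decarboxylase (E1, from Pdha1 and Pdhb), an acetyltransferase (E2, from Dlat) and a dehydrogenase (E3, from Dld), and its kinases, here Pdk1 and Pdk3, switch it off.

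Dlat was at 0.25, 0.01 and -0.92 on normal diet, -0.65, -0.56 and -0.53 after 3 weeks and -5.12, -3.02 and -3.78 after 7 weeks. The 7 week arrays lay far below all others, and 1 of the 3 was well above background. Dlat entered the test through the groups where it was high, and its 7 week mean of -3.97 lay below the lowest well-measured signals of those arrays (-3.55 on average), so the size of its change is not settled. As measured, Dlat fell by 3.76 at 7 weeks against normal diet (-3.76 ± 0.52, adjusted p = 0.00263) and by 3.39 against 3 weeks (-3.39 ± 0.52, adjusted p = 0.00161). Both calls held in all 9 fits with 1 array left out, and without 7 week replicate 1 the falls were -3.18 and -2.82.

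Dld, whose product also serves the oxoglutarate dehydrogenase complex, was at 5.21, 3.59 and 4.81 on normal diet, 4.26, 3.88 and 4.08 after 3 weeks and 2.45, 2.83 and 2.67 after 7 weeks. It fell by 1.89 at 7 weeks (-1.89 ± 0.40, adjusted p = 0.0105), in all 9 fits with 1 array left out, and its second probe fell too (-2.43 ± 0.52, adjusted p = 0.0112 over probes). At 7 weeks against 3 weeks it was lower by 1.42 ± 0.40 (-1.42, adjusted p = 0.0223), a call that ended without 3 week replicate 1 (-1.33, adjusted p = 0.0705) or 3 (-1.42, 0.0646).

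Pdha1, on the X chromosome, was at 2.27, 1.54 and 2.18 on normal diet, 2.65, 2.57 and 3.11 after 3 weeks and 0.41, 1.16 and 1.22 after 7 weeks. The 3 week arrays lay highest and the 7 week arrays lowest, with no overlap between groups. Pdha1 was lower by 1.85 at 7 weeks than at 3 weeks (-1.85 ± 0.33, adjusted p = 0.00339), a call that held in all 9 fits with 1 array left out, and fell by 1.07 against normal diet (-1.07 ± 0.33, adjusted p = 0.0412). The call against normal diet held without normal diet replicate 2 or 7 week replicate 3; without any other array it ended, with changes between -1.18 and -0.81 and adjusted p from 0.0506 to 0.142. Its partner Pdhb had a change of -0.57 ± 0.29 at 7 weeks, which was not called, and -0.59 ± 0.29 by its second probe.

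Of the kinases, Pdk3, also X-linked, was at 4.40, 4.06 and 4.36 on normal diet, 3.45, 3.34 and 4.06 after 3 weeks and 2.27, 2.66 and 3.71 after 7 weeks. It fell by 1.40 at 7 weeks (-1.40 ± 0.39, adjusted p = 0.0286), and it was not called without normal diet replicate 1 (-1.34), 2 (-1.50) or 3 (-1.35) or 7 week replicate 2 (-1.29), at adjusted p from 0.0522 to 0.0955. Pdk1, known as a target of hypoxia-inducible factors, had changes of -0.81 ± 0.42 at 7 weeks and -0.98 ± 0.42 at 3 weeks, neither called.

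In the citric acid cycle 3 of the 14 genes were called lower at 7 weeks, where 18.7% of all genes were, none higher, and the median change was -1.18. At 3 weeks none was called, while levels did not overlap with normal diet for 10 of the 14, of which 8 were lower and 2 higher; of all genes 31.6% were lower and 18% higher without overlap. The 3 called at 7 weeks encode 2 of the 3 subunits of the NAD-dependent isocitrate dehydrogenase, a control point of the cycle, and the GDP-forming subunit of succinyl-CoA ligase.

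Idh3a, the catalytic subunit, was at 5.62, 5.36 and 4.93 on normal diet, 4.54, 4.58 and 4.77 after 3 weeks and 2.48, 4.10 and 4.05 after 7 weeks. The 3 groups did not overlap, and 7 week replicate 1 lay lowest. Idh3a fell by 1.76 at 7 weeks (-1.76 ± 0.44, adjusted p = 0.0179). Without 7 week replicate 1 the change was -1.23 (adjusted p = 0.0112), and without normal diet replicate 1 the call ended (-1.60, adjusted p = 0.0733).

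Idh3b was at 4.03, 2.99 and 3.33 on normal diet, 4.69, 4.77 and 4.79 after 3 weeks and 0.66, 1.91 and 2.35 after 7 weeks. The 3 week arrays lay above and the 7 week arrays below all normal diet arrays. It was lower by 3.11 at 7 weeks than at 3 weeks (-3.11 ± 0.45, adjusted p = 0.00128), which held in all 9 fits with 1 array left out, and fell by 1.81 against normal diet (-1.81 ± 0.45, adjusted p = 0.018). The call against normal diet ended without normal diet replicate 1 (-1.52, adjusted p = 0.0755) or 3 (-1.87, 0.0525). At 3 weeks its change of 1.30 ± 0.45 was not called (adjusted p = 0.0911), and the regulatory subunit Idh3g was not called in any comparison (-0.08 ± 0.29 at 7 weeks).

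Succinyl-CoA ligase pairs the subunit of Suclg1 with that of Sucla2 (ADP-forming) or Suclg2 (GDP-forming). Suclg2 was at -1.05, -1.52 and -1.54 on normal diet, -0.68, -1.24 and 0.14 after 3 weeks and -5.13, -3.10 and -3.33 after 7 weeks, where 2 of the 3 arrays were well above background. All 7 week arrays lay below all others. Their mean of -3.85 lay below the lowest well-measured signals of those arrays (-3.55 on average), and Suclg2 entered the test through the groups where it was high, so the size of its change is not settled. As measured, Suclg2 fell by 2.48 at 7 weeks against normal diet (-2.48 ± 0.56, adjusted p = 0.0124) and by 3.26 against 3 weeks (-3.26 ± 0.56, adjusted p = 0.00262). The call against normal diet ended without normal diet replicate 1 (-2.32, adjusted p = 0.0539). Sucla2 was at 1.90, 4.04 and 4.16 after 7 weeks, against 5.09, 4.91 and 4.89 on normal diet, and its change of -1.60 ± 0.55 was not called (adjusted p = 0.0546). Suclg1 had a change of 0.25 ± 0.40 at 7 weeks and was not called.

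Ogdh, the first subunit of oxoglutarate dehydrogenase, was at 5.93, 5.93 and 5.94 on normal diet, 5.13, 4.79 and 5.21 after 3 weeks and 5.88, 5.81 and 6.32 after 7 weeks. The 3 week arrays lay below all others. By this probe Ogdh was higher by 0.96 ± 0.26 at 7 weeks than at 3 weeks (adjusted p = 0.0178), and its change at 3 weeks against normal diet was -0.89 ± 0.26 (adjusted p = 0.0544). The other 2 probes had changes of 0.03 and 0.11 between 7 and 3 weeks, without a call, and with no scaling between arrays the change of the first was -0.004. The call between 7 and 3 weeks ended without 3 week replicate 2 (0.83, adjusted p = 0.0614). Dlst, the second subunit, was not called (0.04 ± 0.28 at 7 weeks and -0.57 ± 0.28 at 3 weeks).

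Citrate synthase, the entry of the cycle, lay just outside the threshold. Cs was at 6.50, 6.54 and 6.49 on normal diet, 5.43, 4.67 and 5.61 after 3 weeks and 3.93, 5.43 and 5.85 after 7 weeks, so every low iron array lay below every normal diet array. Its change was -1.44 ± 0.48 at 7 weeks (adjusted p = 0.0503) and -1.28 ± 0.48 at 3 weeks (adjusted p = 0.116). The mitochondrial malate dehydrogenase Mdh2 was at 6.05, 6.32 and 6.53 after 3 weeks, against 7.27, 7.42 and 7.24 on normal diet, with a change of -1.01 ± 0.36 (adjusted p = 0.102), and of -0.06 ± 0.36 at 7 weeks. The other malate dehydrogenase, Mdh1, the fumarase gene Fh1 and the mitochondrial NADP-dependent Idh2 had changes of -0.92, -1.56 and -1.70 at 7 weeks and were not called.

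Idh1, the cytosolic isocitrate dehydrogenase that makes NADPH, had its highest change at 3 weeks (2.01 ± 0.71, adjusted p = 0.0968). It was at 0.02, 0.32 and -0.04 after 3 weeks, against -1.92, -2.37 and -1.45 on normal diet. After 7 weeks replicate 1 was at 0.62 and replicates 2 and 3 at -2.47 and -2.11, and the change of 0.59 ± 0.71 was not called.

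Other genes of these pathways were counted from a list of 73 genes, of which 57 were tested. At 7 weeks 5 were called higher and 15 lower, with a median change of -0.50, where 10.7% and 18.7% of all genes were. At 3 weeks 3 were higher and 5 lower, with a median of -0.19, where 3.52% and 7.88% of all genes were. At 7 weeks against 3 weeks 11 were higher and 13 lower, where 17.6% and 19.6% of all genes were.

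Among those higher at 7 weeks were the muscle enolase gene Eno3 (1.06 ± 0.29, adjusted p = 0.0256), the testis phosphoglycerate kinase gene Pgk2 (1.85 ± 0.35, adjusted p = 0.00723) and both glycerol phosphate dehydrogenases, the cytosolic Gpd1 (1.81 ± 0.41, adjusted p = 0.0134) and the mitochondrial Gpd2 (1.18 ± 0.29, adjusted p = 0.018). These 2 enzymes form a shuttle that carries electrons from cytosolic NADH to the respiratory chain. Gpd1 was at 0.40, 0.72 and 0.69 on normal diet, 0.26, -0.69 and -0.55 after 3 weeks and 3.27, 1.89 and 2.09 after 7 weeks. The fifth was Epas1, which encodes HIF-2 alpha (1.15 ± 0.28, adjusted p = 0.016); Hif1a had a change of 0.32 ± 0.60 and was not called. With no scaling between arrays each of these 7 week changes is lower by 0.80.

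Lower at 7 weeks, besides Slc2a4, were further genes of the mitochondrial part and several genes outside it. Pdhx, the E3-binding protein of pyruvate dehydrogenase (-1.21 ± 0.39, adjusted p = 0.0466), Pdp1, the phosphatase that switches the complex on (-1.40 ± 0.43, adjusted p = 0.0379), and Lias, which makes the lipoic acid of its E2 subunit (-1.25 ± 0.33, adjusted p = 0.0219), all fell. Sdhd, a membrane anchor of succinate dehydrogenase, fell by 1.34 ± 0.33 (-1.34, adjusted p = 0.0174), and Me2, the mitochondrial malic enzyme, by 2.82 ± 0.53 (-2.82, adjusted p = 0.00691). Me2 was at -0.24, 1.60 and 1.77 after 7 weeks, against 4.25, 3.95 and 3.39 on normal diet. Pck2, the mitochondrial phosphoenolpyruvate carboxykinase, fell by 1.92 ± 0.54 (-1.92, adjusted p = 0.0281). Pfkfb1, Pgam5, Pgm2l1, Shpk and Prps2, a ribose phosphate pyrophosphokinase, fell by 1.44 to 3.21, of which Shpk and Prps2 were well above background on 1 of the 3 arrays of 7 weeks. Galm, Lipt1 and Ogdhl were called lower too, were not well above background on any 7 week array, and lay on normal diet below the mean of the lowest well-measured signals of those arrays, so no fold is given.

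At 3 weeks Pfkfb2, which makes the activator fructose 2,6-bisphosphate of phosphofructokinase, rose by 1.96 ± 0.34 (adjusted p = 0.0139), and so did Gpd1l (1.86 ± 0.41, adjusted p = 0.0255) and Myc, a transcription factor that raises many glycolytic genes (1.45 ± 0.38, adjusted p = 0.0417). Pfkfb2 was at 2.43, 1.30 and 1.77 after 3 weeks, against 0.04, -0.52 and 0.11 on normal diet. Slc16a3, which encodes the lactate exporter MCT4, fell by 2.56 ± 0.34 (-2.56, adjusted p = 0.00914). It was at -1.13, -1.21 and -1.17 after 3 weeks, against 1.27, 1.73 and 1.16 on normal diet, and was higher by 1.82 ± 0.34 at 7 weeks than at 3 weeks (adjusted p = 0.00411). Pcx, pyruvate carboxylase (-1.29 ± 0.33), Sdhc of succinate dehydrogenase (-1.43 ± 0.29), Pdk2, a further pyruvate dehydrogenase kinase (-1.27 ± 0.28), and Pgm2l1 (-1.39 ± 0.39) fell as well, with adjusted p from 0.0203 to 0.0494.

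Some lists of markers of other marrow cells differed between the groups. Of all genes, 3.52% were called higher and 7.88% lower at 3 weeks, and 10.7% higher and 18.7% lower at 7 weeks. Of 11 monocyte and macrophage markers tested, 4 were higher and none lower at 3 weeks, and 4 lower and none higher at 7 weeks, and the log2 of their summed level was 5.35 to 5.93 on normal diet, 6.19 to 6.65 after 3 weeks and 4.57 to 4.92 after 7 weeks. Of 14 neutrophil markers, 2 were higher at 3 weeks and 1 at 7 weeks, with summed levels of 8.85 to 9.83, 8.84 to 9.33 and 9.18 to 9.73 on the same groups. Of 8 B lineage markers, 2 were higher at 3 weeks, and 1 higher and 1 lower at 7 weeks (2.61 to 3.16, 3.62 to 4.62 and 2.31 to 3.56). Of 8 T and NK cell markers 1 was higher at 7 weeks, with Cd8a well above background on none of those arrays (4.26 to 4.40, 4.17 to 4.77 and 4.51 to 5.43). Of 7 platelet lineage markers 1 was lower at 7 weeks (4.22 to 5.74, 4.50 to 6.13 and 2.78 to 5.32). Of 6 mast cell, basophil and eosinophil markers 2 were lower at 7 weeks, where Mcpt8, Cpa3, Fcer1a and Epx were well above background on no array (3.74 to 4.59, -0.79 to 4.61 and -0.90 to -0.54). In none of the other lists was a marker at background on all arrays of a group. Of the 12 erythroblast markers 3 were higher and 1 lower at 7 weeks, and none was called at 3 weeks. At 7 weeks against 3 weeks 17.6% of all genes were higher and 19.6% lower. In that comparison 8 of the 11 monocyte and macrophage markers were lower and none higher. Of the 14 neutrophil markers 5 were lower and 2 higher, and of the 12 erythroblast markers 1 was lower and 4 higher. Each remaining list had at most 2 lower and at most 1 higher. The part of other cells in the changes described here, such as those of Slc2a3, Pfkp, Pkm and Idh1 at 3 weeks, was not tested.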

How the data were processed

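Erythroblast RNA of 9 samples was hybridized to single-colour Agilent arrays, 3 in each diet group. The deposited scanner files hold spot intensities made by Agilent Feature Extraction 10.7.3.1, which subtracted background and detrended within each array and did not scale between arrays, per the file headers. A deposited table of the whole series gives log2 values for 34922 probes, each probe centred on its median; against the scanner values its columns had r from 0.9975 to 0.999 and slopes from 0.9955 to 1.002, and column medians of 0 except -0.01906 for 7 week replicate 2. Its normalization before centring is not given in the sources used here, and it served as an alternative. The number of arrays limits the precision.

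Processed intensities were put on the log2 scale, the array's 75th percentile was subtracted, control and outlier spots were left out, and a probe was tested where every array of some group had it well above background. Probes were named through RefSeq accessions: 26413 of 55681 probes had a name, 29268 had none, and 984 lacked a usable spot on some array. The probe brightest by its mean level over all 9 arrays stood for a gene. Group means were compared with lmFit and eBayes in limma 3.58.1 (R 4.3.3) over all 9 arrays, with Benjamini-Hochberg adjustment over 14506 genes, or 34486 probes where stated, and the fit was tested on simulated data. If the samples of a group do not come from separate animals, the p-values measure spread that may be technical.

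The members, the other lists and the alternatives were chosen with earlier results of these data known. All members are described, with values per array for those called; other pathway genes are named where they were called, except Hif1a, which was added after its values were seen. Alternatives were quantile normalization, no scaling, normexp background correction with an offset of 50 (on median spot signals, a column chosen after seeing the files), the series table, no filter on dim probes, the mean over probes, array weights, the replicate number as a block, only the 2 groups compared, and arrays left out.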

Additional observations from a re-analysis of the deposited data

Results flagged for a closer look

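For 13 of the 47 genes (27.7%, where 37.2% of all genes did) the change after 7 weeks differed from that after 3 weeks by limma's test of the difference, which is the comparison of 7 weeks with 3 weeks since both share the normal diet arrays. In glucose import and glycolysis the difference was 4.81 for Slc2a1 (adjusted p = 0.0114), 1.55 for Hk1 (adjusted p = 0.00151), 1.57 for Aldoa (adjusted p = 0.00676), 0.99 for Gapdh (adjusted p = 0.0469) and -3.67 for Ldhb (adjusted p = 0.0209). In the pentose phosphate pathway it was -3.23 for Rpe (adjusted p = 0.000448) and 1.05 for Taldo1 (adjusted p = 0.0114). In pyruvate dehydrogenase it was -1.85 for Pdha1 (adjusted p = 0.00339), -3.39 for Dlat (adjusted p = 0.00161) and -1.42 for Dld (adjusted p = 0.0223). In the citric acid cycle it was -3.11 for Idh3b (adjusted p = 0.00128), 0.96 for Ogdh (adjusted p = 0.0178) and -3.26 for Suclg2 (adjusted p = 0.00262). The signs for Hk1, Gapdh, Taldo1 and Ogdh turned under another processing, given with the alternatives. Ldhb, Dlat and Suclg2 entered the test through the groups where they were high. Their 7 week means lay below the lowest well-measured signals of those arrays on average, so the sizes of their differences are not settled.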

How the results depend on the processing

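The counts of called genes among the 47 were 3 at 3 weeks, 18 at 7 weeks and 13 between 7 and 3 weeks. At 3 weeks the count was 1 when the probes of a gene were averaged (9.29% of all genes called), 16 with array weights (34.2%), 13 with only the 2 groups compared (30.4%) and 0 without normal diet replicates 1 and 2, where 1588 of all genes had an unadjusted p below 0.05 in limma. At 7 weeks it was 9 with only the 2 groups compared (19.4%) and 0 without normal diet replicates 1 and 2. With 1 array left out the counts ranged from 1 to 10, from 7 to 22 and from 10 to 17 in the 3 comparisons. Under the other alternatives, quantile normalization, no scaling, normexp, the series table and no filter on dim probes, each count lay within 1.5 times its value, with 22 called at 7 weeks (2 higher and 20 lower, where 48.9% of all genes were called) when arrays were not scaled.

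Directions turned for Hk1 at 7 against 3 weeks with the mean over probes (-0.23); for Gapdh in that comparison with quantile normalization (-0.18) and the mean over probes (-0.0572); for Taldo1 against normal diet with quantile normalization (-0.0655) and no scaling (-0.0518), and against 3 weeks with quantile normalization (-0.18); and for Ogdh against 3 weeks with no scaling (-0.00407). Taldo1 and Ogdh without scaling follow from the shift common to all genes; the cause of the others was not tested. For the called genes, 41 of the recomputed values at 3 weeks kept their call and 16 lost it, at 7 weeks 242 and 98, and between 7 and 3 weeks 214 and 28, with no direction turned besides those given.

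With the replicate number as a block 3, 15 and 12 of the 47 genes were called, where 9.66%, 28.0% and 36.2% of all genes were. Correlations of deviations lay between -0.172 and 0.286 for the 9 pairs of arrays with the same number and between -0.266 and 0.245 for the other 18. These ranges overlap and show no sign that the numbers pair the arrays. With 3 arrays per group they cannot exclude it. Signal near background limits Hk2, Pklr, Ldhb, Dlat and Suclg2 at 7 weeks.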
